A study of Mus musculus with 6 samples.

Results

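Olfactory receptor (Olfr) genes are the largest gene family of the mouse genome and lie in arrays of closely spaced, mostly single-exon coding units. The clusters described here hold the autosomal protein-coding genes of the NCBIM37 annotation whose symbol is Olfr followed by a number, and genes less than 200 kb apart were joined into 1 cluster. This gave 1106 genes of 21418 autosomal protein-coding genes, in 61 clusters on 17 chromosomes; 7 further genes of this name on the X chromosome were left out. The deposited values cover 1327469 tiles of 2 kb, of which 1196897 autosomal tiles with known sequence were used. Of these, 2043 overlapped an Olfr gene, 12103 lay between the Olfr genes of a cluster, and 26816 lay within 500 kb outside a cluster and are called its flank. The clusters were of very unequal size: 17 had at least 20 genes and held 879 genes, 17 had 5 to 19 genes and held 176, and 27 had 1 to 4 genes and held 51.

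The study measured H3K9me2, H3K27me3 and H3K9me3 by ChIP-seq in mouse embryonic stem cells (ESCs) that lacked Dicer, with and without Dnmt1. The Dicer KO group, labelled Dicer -/-, is a line in which Dicer was deleted constitutively by CRISPR/Cas9 and which was grown from single cells; its Dnmt1 alleles carry loxP sites (Dnmt1 loxP/loxP) and are intact. The Dicer KO/Dnmt1 cKO group, labelled Dicer/Dnmt1 -/-, is the same kind of cell after Cre, induced with 4-hydroxytamoxifen, had deleted Dnmt1. Both groups therefore lack Dicer, no cell with Dicer entered the comparisons, and how many days had passed since the Dnmt1 deletion is not given for these libraries. The labels give E14 as the background strain, whereas the methods give C57BL/6 for the parental line. Chromatin was precipitated with Abcam ab1220 for H3K9me2 and with antibodies of Active Motif for the other marks. There was a single library for each mark in each genotype; differences between genotypes are therefore given without replicates and without p-values. The H3K9me2 libraries held 16834940 reads in Dicer KO and 20503709 in Dicer KO/Dnmt1 cKO, those of H3K27me3 27162045 and 21280804, and those of H3K9me3 18155478 and 18931477. A median tile had from 13 to 18 reads, so most values below are sums over many tiles.

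In olfactory sensory neurons, each cell expresses a single allele of a single Olfr gene, and the silent receptor genes there are packed into heterochromatin that carries H3K9me3 and H4K20me3. H3K9me2 is laid down by G9a and GLP over broad silent domains, H3K9me3 marks heterochromatin and silenced retrotransposons, and H3K27me3 is the product of Polycomb repressive complex 2 and covers CpG-rich promoters of developmental genes in ESCs. DNMT1 copies DNA methylation, which in mammals is found mainly at CpG dinucleotides, onto the new strand after replication.

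Olfr genes are short and poor in CpG. The median gene spanned 960.5 bp, 993 of the 1106 genes fell into 1 or 2 tiles, and 16 had annotated bounds over 10 kb. For 611 genes the annotated bounds are those of the coding sequence alone, so that promoters are unknown and sequence is shown from the start codon instead. Below are the first 300 coding bases of 5 genes with high or low levels, read 5′ to 3′ on the coding strand of NCBIM37, with CpG dinucleotides in capitals. They were taken by level in Dicer KO among genes with at least 50 reads of the mark there, and genes with fewer reads were not ranked. The level is that of all tiles in the annotated bounds of a gene and not of the bases shown. They are Olfr1411 (chr1:94493098-94493397, plus strand), with the highest H3K9me2, Olfr138 (chr17:38411718-38412017, plus strand), with the lowest H3K9me2 and H3K27me3, Olfr1339 (chr4:118407136-118407435, plus strand), with the highest H3K27me3, Olfr149 (chr9:39510053-39510352, minus strand), with the highest H3K9me3, and Olfr56 (chr11:48947792-48948091, plus strand), with the lowest H3K9me3. Their GC content was 56.7%, 45.3%, 47.0%, 48.0% and 51.3% in this order.
Olfr1411: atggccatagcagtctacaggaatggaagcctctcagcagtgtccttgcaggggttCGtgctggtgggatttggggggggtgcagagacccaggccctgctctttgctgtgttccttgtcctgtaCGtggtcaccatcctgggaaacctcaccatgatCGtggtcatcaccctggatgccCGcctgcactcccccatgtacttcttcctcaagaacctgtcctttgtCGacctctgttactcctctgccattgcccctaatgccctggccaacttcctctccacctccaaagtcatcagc
Olfr138: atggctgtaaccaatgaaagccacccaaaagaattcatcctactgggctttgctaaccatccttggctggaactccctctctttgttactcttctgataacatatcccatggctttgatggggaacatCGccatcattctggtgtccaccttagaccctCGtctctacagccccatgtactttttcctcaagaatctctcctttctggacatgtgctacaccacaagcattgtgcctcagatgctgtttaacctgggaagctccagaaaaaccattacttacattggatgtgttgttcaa
Olfr1339: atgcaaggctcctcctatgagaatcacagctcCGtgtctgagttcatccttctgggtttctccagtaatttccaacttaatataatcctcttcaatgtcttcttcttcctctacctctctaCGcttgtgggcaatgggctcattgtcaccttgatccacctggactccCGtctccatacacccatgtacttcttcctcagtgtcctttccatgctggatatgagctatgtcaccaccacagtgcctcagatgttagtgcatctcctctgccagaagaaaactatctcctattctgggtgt
Olfr149: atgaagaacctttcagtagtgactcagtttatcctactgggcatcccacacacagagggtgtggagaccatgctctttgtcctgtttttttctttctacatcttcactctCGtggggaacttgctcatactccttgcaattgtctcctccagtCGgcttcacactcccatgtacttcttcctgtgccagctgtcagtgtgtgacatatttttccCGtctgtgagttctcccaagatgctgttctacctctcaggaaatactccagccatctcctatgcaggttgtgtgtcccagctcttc
Olfr56: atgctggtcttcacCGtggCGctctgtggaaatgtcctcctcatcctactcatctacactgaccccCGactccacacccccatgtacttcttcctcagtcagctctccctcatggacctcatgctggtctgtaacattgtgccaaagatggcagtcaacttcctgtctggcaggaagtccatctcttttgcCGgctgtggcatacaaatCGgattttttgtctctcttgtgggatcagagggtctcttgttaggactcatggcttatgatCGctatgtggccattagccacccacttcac
They hold 5, 2, 3, 3 and 6 CpG dinucleotides in the same order. The tiles that these bases lie in were themselves high for Olfr1411, with an H3K9me2 level of 2.35 in both genotypes relative to the autosomal mean, and for Olfr1339, with H3K27me3 at 3.76 and 2.66. For Olfr149, most H3K9me3 reads lay in its other tile, and the tile shown had 1.56 and 1.76. For Olfr138 and Olfr56, whose bounds are long, the tiles shown were not low in the mark on lysine 9 named for them: H3K9me2 was at 1.14 and 1.20 for Olfr138, and H3K9me3 at 1.43 and 1.50 for Olfr56. Over the 1103 genes for which the window could be read, the median was 2 CpG (quartiles 1 and 3, range 0 to 19), and 1068 windows began with ATG. Tiles of Olfr genes had a GC content of 38.1%, against 38.9% between the genes, 43.4% in the flank and 41.9% over all autosomal tiles. They held 5.39 CpG per kb, against 9.38 in the flank and 8.50 over the autosomes. Base composition therefore differed between the clusters and their flanks, and the pooled levels and those of the large clusters are also compared below with autosomal tiles of the same GC content.

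The marks at the deleted genes and at genes of known state were read first. Dnmt1, the maintenance DNA methyltransferase, had 109 H3K9me2 reads in Dicer KO and 199 in Dicer KO/Dnmt1 cKO, 129 and 123 H3K27me3 reads, and 174 and 161 H3K9me3 reads over its 24 tiles. Dicer1, which cuts double-stranded RNA into small RNAs, had 322 and 456, 277 and 266, and 290 and 330 reads in the same order over its 34 tiles. These reads do not check the deletions, since the tiles of a gene are larger than a deleted exon and the parts deleted are not used here. A level is given below as reads per tile relative to the mean of all autosomal tiles of the same library, so that 1 is the autosomal mean. At the tile of the annotated start, 6 ESC genes had a median H3K27me3 level of 0.522 in Dicer KO and 0.463 in Dicer KO/Dnmt1 cKO. Within this list, the start tile of Esrrb stood highest, at 1.81 and 2.60. For 8 regulators of other lineages, among them Pax6, T and Neurog1, the medians were 7.71 and 5.09 and the ranges 2.45 to 10.8 and 2.43 to 6.89. By the medians, this is the pattern known for ESCs, where pluripotency genes lack H3K27me3 and silent developmental regulators carry it, but Esrrb did not follow it and lay within the range of the regulators in Dicer KO/Dnmt1 cKO. Of 5 genes of mature olfactory sensory neurons, the 4 other than Cnga2 lie on autosomes, and their medians were 2.06 and 1.19. The H3K27me3 levels at the start tiles of Omp, the olfactory marker protein, and of the other neuronal genes were not below the autosomal mean in either genotype. Some of these levels rest on few reads, with 23 and 18 for Omp (1.04 and 1.04) and 18 for Gng13 in Dicer KO/Dnmt1 cKO (1.04). Counting error does not tell these apart from the mean.

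Olfr gene tiles carried more H3K9me2 than both their flanks and the autosomal mean, somewhat more H3K9me3 than their flanks, and H3K27me3 at the level of their flanks. The H3K9me2 level at Olfr gene tiles was 1.18 in Dicer KO and 1.13 in Dicer KO/Dnmt1 cKO, and in the flank it was 0.889 and 0.918. In log2 terms, gene tiles stood 0.41 (0.39 to 0.42) and 0.30 (0.28 to 0.31) above the flank. Intervals here and below are 95% intervals for counting error only, and duplicate reads cannot be told apart from independent fragments. For H3K9me3, the levels were 0.998 and 0.979 at gene tiles and 0.886 and 0.876 in the flank, a log2 ratio of 0.17 (0.15 to 0.19) and 0.16 (0.14 to 0.18). Against flank tiles that overlap no annotated gene, these H3K9me3 ratios were 0.04 and 0.05. For H3K27me3, the levels were 0.949 and 0.946 at gene tiles and 0.950 and 0.937 in the flank, which differ by no more than counting error allows.

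**Figure D1:**
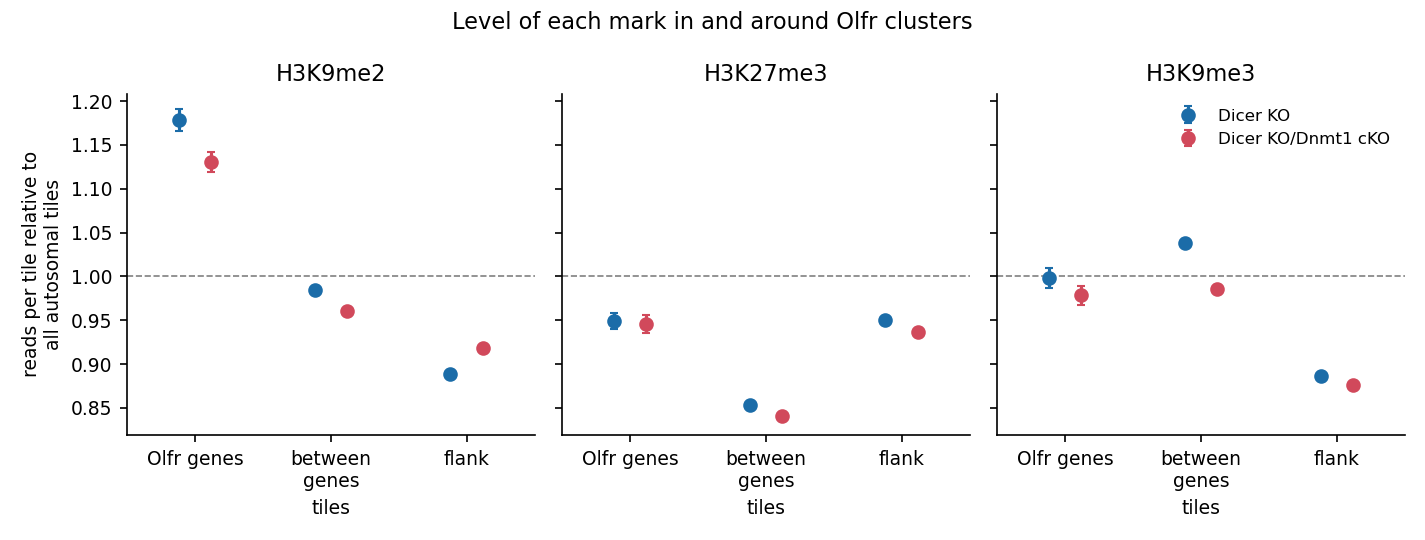
Reads per 2 kb tile relative to the mean of all autosomal tiles of the library (y axis, 1 is the autosomal mean) at Olfr gene tiles, between the genes and in the flank (x axis), for each mark and genotype; bars are 95% intervals for counting error. H3K9me2 falls from gene tiles to flank, H3K27me3 is lowest between the genes, and H3K9me3 is highest there.

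The tiles between the genes separate the marks further. H3K9me2 and H3K27me3 were both higher at the genes than between them, whereas H3K9me3 was not. Gene tiles exceeded the tiles between them by 0.26 and 0.24 log2 units for H3K9me2 and by 0.15 and 0.17 for H3K27me3 in Dicer KO and Dicer KO/Dnmt1 cKO. For H3K9me3 the same ratio was -0.06 (-0.07 to -0.04) in Dicer KO and -0.01 (-0.03 to 0.01) in Dicer KO/Dnmt1 cKO. Between the genes, H3K27me3 had its lowest level of the compared regions, 0.853 and 0.840, and H3K9me3 its highest, 1.04 and 0.986. The reference used here held neither repeats nor mappability, so repeats between the genes and near-identical Olfr genes were not set apart in these levels. A sequence that cannot be mapped uniquely loses reads of every mark alike, so each mark was also divided by the mean of the other marks of its genotype. On this scale H3K9me2 at Olfr gene tiles was 1.21 in Dicer KO and 1.18 in Dicer KO/Dnmt1 cKO, H3K27me3 was 0.872 and 0.897, and H3K9me3 was 0.939 and 0.943. H3K9me2 was thus the mark by which Olfr gene tiles exceeded the autosomal mean most, with and without Dnmt1.

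Part of these ratios moved with base composition. Compared with autosomal tiles of the same GC content, H3K9me2 at Olfr gene tiles stood at log2 0.21 and 0.16, H3K27me3 at 0.12 and 0.09, and H3K9me3 at -0.03 and -0.04. The flank stood below its own GC-matched tiles for every mark, from -0.18 for H3K9me3 in Dicer KO/Dnmt1 cKO to -0.11 for H3K9me2 in Dicer KO/Dnmt1 cKO. H3K27me3 was the mark whose relation to the flank depended on this choice. With flank tiles weighted to the GC content of the gene tiles, gene tiles exceeded the flank by 0.27 and 0.24. With flank tiles outside annotated genes, they were below it, at -0.14 and -0.10. When the largest cluster was left out, an alternative chosen after seeing the data, the ratios were 0.09 and 0.09.

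Around annotated Olfr gene starts, H3K9me2 and H3K27me3 formed a narrow peak and H3K9me3 did not. The mean H3K9me2 level of the start tile was 1.19 in Dicer KO and 1.14 in Dicer KO/Dnmt1 cKO, against 1.01 and 0.981 at 20 to 40 kb on either side. For H3K27me3 these levels were 0.960 and 0.970 at the start, against 0.870 and 0.858 farther away. H3K9me3 at the start tile, 1.02 and 0.991, lay within the range of the single distances at 20 to 40 kb in both genotypes. In the tile at -2 kb it was 0.962 and 0.926, below the lowest level of those distances, 0.990 and 0.939. Neighbouring genes share these distances, so the far tiles hold other Olfr genes as well.

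**Figure D2:**
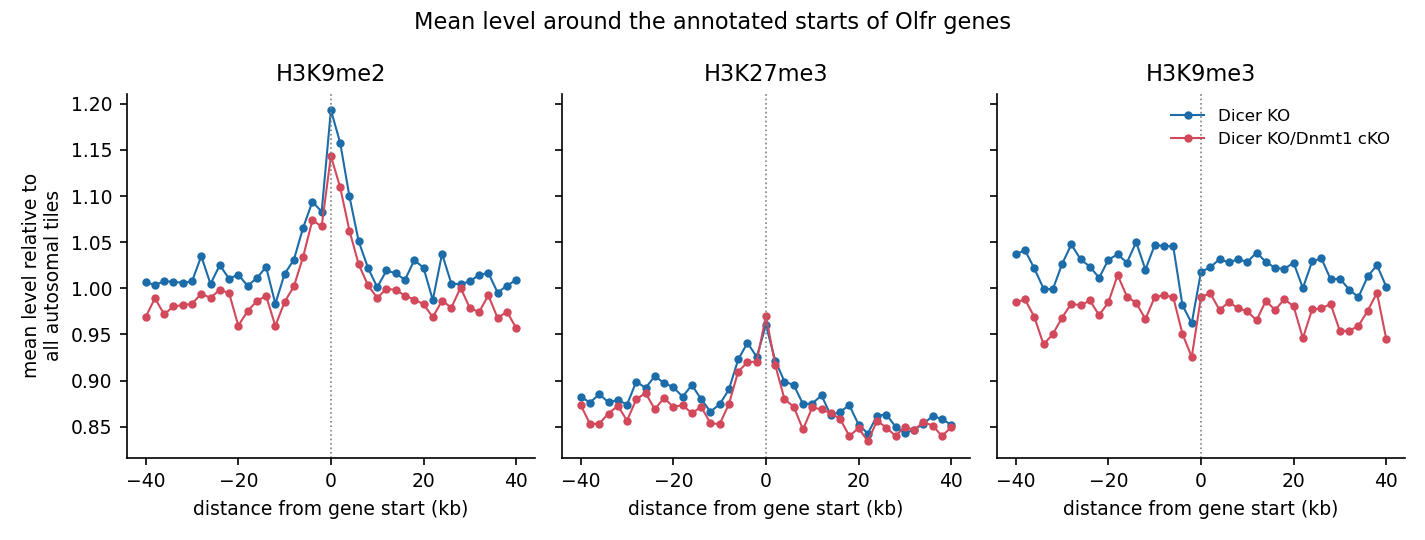
Mean level (y axis, relative to the autosomal mean) in 2 kb tiles by distance from the annotated starts of Olfr genes in kb (x axis), for each mark and genotype. H3K9me2 and H3K27me3 peak at the start tile in both genotypes, and H3K9me3 has no peak there.

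Clusters were then compared each with its own flank. H3K9me2 at gene tiles was above the flank in 52 of 61 clusters in Dicer KO and in 51 in Dicer KO/Dnmt1 cKO, and H3K9me3 in 53 and 49. H3K27me3 was above the flank in 46 and 42 clusters, but the large clusters were split. Counting only ratios whose interval excludes 0, H3K9me2 was above in 40 and below in 1 cluster of Dicer KO, H3K27me3 above in 35 and below in 11, and H3K9me3 above in 30 and below in 4. In Dicer KO/Dnmt1 cKO these counts were 39 and 2, 32 and 9, and 33 and 5. Clusters are neighbouring pieces of the same libraries and not replicates, and these counts describe how widely a pooled value held. No such count over other autosomal regions of like size stands beside them, so they do not set Olfr clusters apart from other regions.

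**Figure D3:**
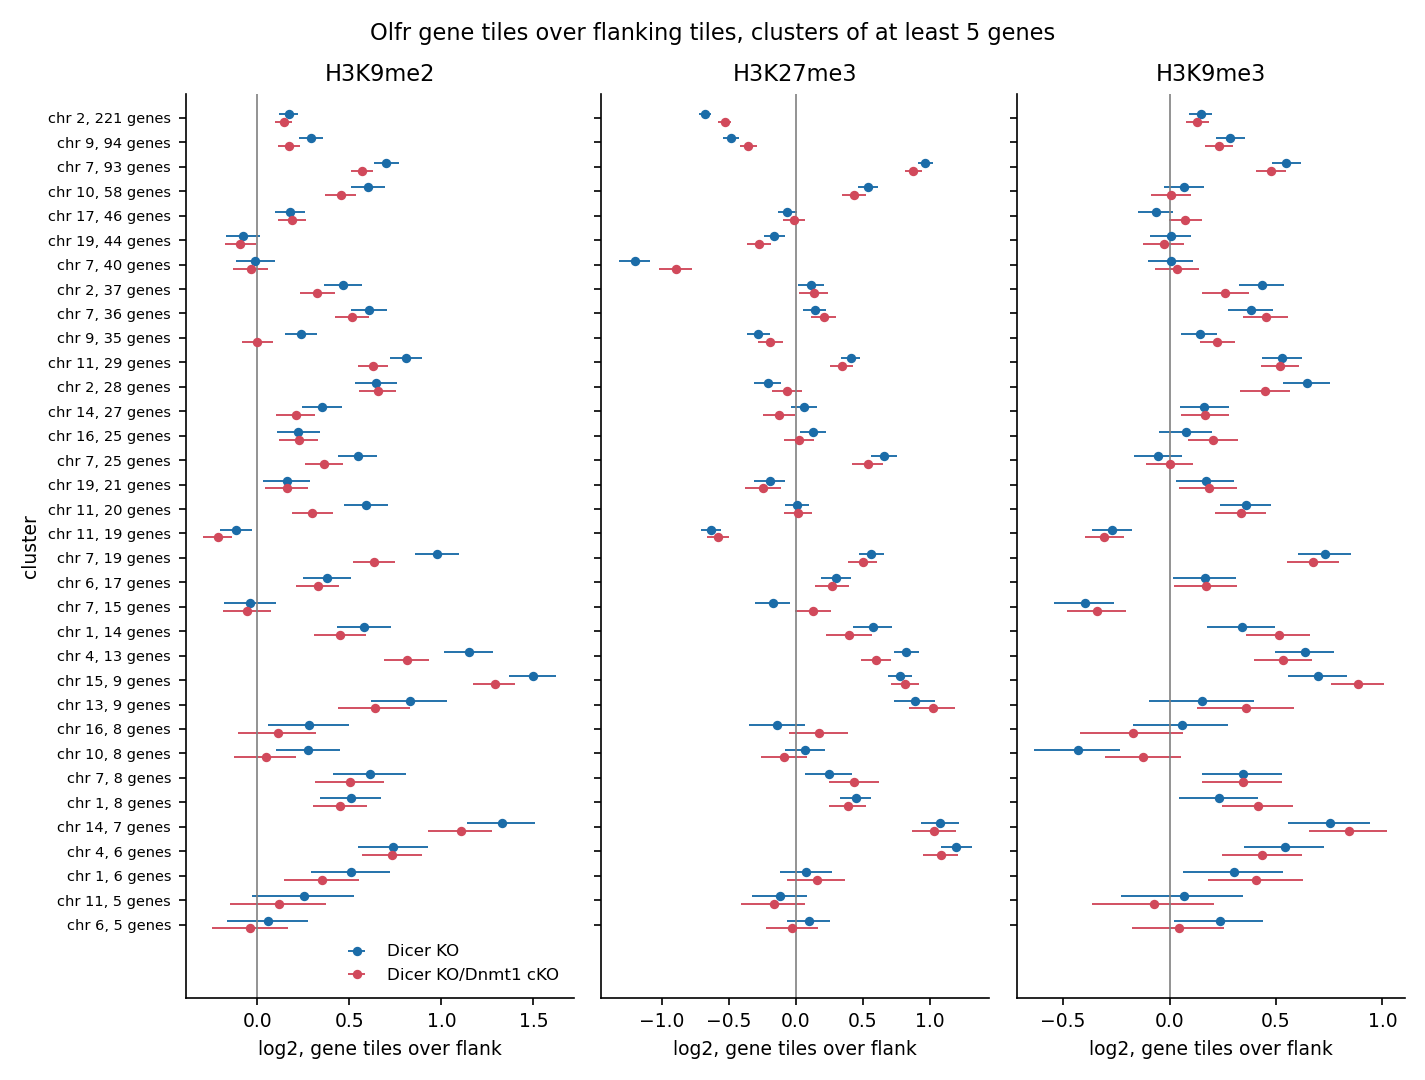
log2 ratio of reads per Olfr gene tile over reads per flank tile (x axis) for the 34 clusters of at least 5 genes (y axis, by chromosome and number of genes, largest at the top), for each mark and genotype; bars are 95% intervals for counting error. Most clusters lie to the right of 0 for H3K9me2 and H3K9me3, while the large clusters lie on both sides for H3K27me3.

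Of the 17 clusters with at least 20 genes, 7 had H3K27me3 above their flank beyond counting error in Dicer KO, and 6 in Dicer KO/Dnmt1 cKO. The highest ratio belonged to chr7:109625287-111344474, with 93 genes. This cluster surrounds the beta-globin genes and holds many of the class I receptors, which resemble those of fish, among them Olfr78. Its H3K27me3 level was 1.16 in Dicer KO and 1.13 in Dicer KO/Dnmt1 cKO, at log2 0.97 (0.91 to 1.03) and 0.88 (0.81 to 0.94) over the flank. H3K9me2 exceeded the flank there by 0.70 and 0.57 and H3K9me3 by 0.55 and 0.48, so all marks were above the flank. On the same chromosome, the 25 genes of chr7:113821048-114291843, with Olfr2 and Olfr17, receptors much used in studies of odorant response and receptor choice, had H3K27me3 at 0.66 and 0.54 over the flank. H3K9me2 was at 0.55 and 0.36 there, and H3K9me3 at -0.05 and 0.00. Between them, the 36 genes of chr7:111701398-112517869 had H3K27me3 at 0.14 and 0.21, H3K9me2 at 0.61 and 0.52, and H3K9me3 at 0.38 and 0.45. Relative to their flanks, these neighbouring clusters thus differed more in H3K27me3 than in H3K9me2, but the flanks were unlike. In Dicer KO, flank H3K27me3 levels were 0.592, 0.949 and 0.612 for the clusters of 93, 36 and 25 genes. The levels at their gene tiles were 1.16, 1.05 and 0.966, so the cluster of 25 genes was the lowest of these. Against autosomal tiles of the same GC content they stood at log2 0.37, 0.22 and 0.18, in the same order. The 58 genes of chr10:128426905-129648205 had H3K27me3 at 0.54 and 0.44, H3K9me2 at 0.60 and 0.45, and H3K9me3 at 0.07 and 0.01. In chr11:73164341-74179111, with 29 genes, H3K27me3 stood at 0.41 and 0.34, H3K9me3 at 0.53 and 0.52, and H3K9me2 at 0.81 and 0.63, the highest H3K9me2 ratio of the large clusters in Dicer KO.

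In 5 of the large clusters H3K27me3 was close to the flank. The 37 genes of chr2:111070975-111997157 had H3K27me3 at 0.11 and 0.13 over the flank, H3K9me2 at 0.47 and 0.33, and H3K9me3 at 0.43 and 0.26. The 25 genes of chr16:58760265-59362042 had 0.13 and 0.02, H3K9me2 at 0.22 and 0.23, and H3K9me3 at 0.08 and 0.20. The H3K27me3 interval excluded 0 in both genotypes for the cluster on chromosome 2 and in Dicer KO alone for the one on chromosome 16. In chr14:50513935-51363999, with 27 genes, H3K27me3 was at 0.06 and -0.12, H3K9me2 at 0.35 and 0.21, and H3K9me3 at 0.16 and 0.17. Its H3K27me3 ratio took opposite signs in the 2 genotypes, and the interval excluded 0 in Dicer KO/Dnmt1 cKO (-0.24 to -0.01). The 20 genes of chr11:58268417-58655544 had H3K27me3 at 0.01 and 0.02, H3K9me2 at 0.59 and 0.30, and H3K9me3 at 0.36 and 0.33. The 46 genes of chr17:37222136-38473042, next to the major histocompatibility complex and with H2-M2 and H2-M3 in their midst, had H3K27me3 at -0.06 and -0.01. H3K9me2 was at 0.18 and 0.19 in that cluster, and H3K9me3 at -0.07 and 0.07, so only H3K9me2 stood apart from the flank there.

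In the other 7 large clusters H3K27me3 was below the flank, beyond counting error in Dicer KO. The lowest ratio belonged to chr7:114958094-116037934, with 40 genes, where the H3K27me3 level was 0.545 in Dicer KO and 0.638 in Dicer KO/Dnmt1 cKO, at log2 -1.20 (-1.32 to -1.09) and -0.90 (-1.02 to -0.78). H3K9me2 and H3K9me3 of this cluster did not differ from the flank beyond counting error, at -0.01 and -0.04 and at 0.01 and 0.04. The largest cluster, chr2:85171054-90122730, with 221 genes, had H3K27me3 levels of 0.721 and 0.760, at -0.68 (-0.72 to -0.64) and -0.53 (-0.58 to -0.48). Its H3K9me2 was at 0.17 and 0.14 and its H3K9me3 at 0.15 and 0.13, so the marks on lysine 9 were above the flank where H3K27me3 was below it. This contrast was one with the flank, which had a GC content of 44.1% against 34.9% at the gene tiles. Against autosomal tiles of the same GC content, H3K27me3 stood at -0.11 and -0.09 and H3K9me3 also below, at -0.18 and -0.18. Compared with the flank, the marks were likewise opposed for the 94 genes of chr9:37518857-39995679, which include Olfr151, another receptor of many studies of receptor choice. There H3K27me3 was at -0.48 and -0.35, H3K9me2 at 0.29 and 0.17, and H3K9me3 at 0.29 and 0.23. The 35 genes of chr9:18559100-20140538 had H3K27me3 at -0.28 and -0.19, H3K9me2 at 0.24 and 0.00, and H3K9me3 at 0.14 and 0.22.

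The other large clusters below the flank had smaller ratios. The 28 genes of chr2:36232298-37188253 had H3K27me3 at -0.21 and -0.07, the latter within counting error, while H3K9me2 was at 0.64 and 0.65. Its H3K9me3, at 0.65 and 0.45, gave the highest H3K9me3 ratio of the large clusters in Dicer KO. On chromosome 19, the 21 genes of chr19:11902567-12497842 had H3K27me3 at -0.19 and -0.24, H3K9me2 at 0.16 and 0.16, and H3K9me3 at 0.17 and 0.18. The 44 genes of chr19:12748669-13994534 had H3K27me3 at -0.16 and -0.27, H3K9me2 at -0.08 and -0.09, and H3K9me3 at 0.01 and -0.03. This last cluster and that of 40 genes on chromosome 7 were the large clusters without H3K9me2 above the flank in either genotype. In Dicer KO/Dnmt1 cKO, the 35 genes of chr9:18559100-20140538 were not above their flank beyond counting error either (0.00, -0.08 to 0.08). The H3K9me2 levels of the clusters of 44 and 40 genes were 1.14 and 1.08 and 1.14 and 1.13, beside flanks of 1.20 and 1.15 and 1.15 and 1.16. The receptors and neighbouring genes named as landmarks were chosen for what is known of them after the values had been seen, and no value is drawn from them.

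Against autosomal tiles of the same GC content, several large clusters changed place. H3K27me3 was then above in 11 of the 17 large clusters in Dicer KO and in 9 in Dicer KO/Dnmt1 cKO, and of those below their flank, 3 and 2 were above on this scale. The cluster of 44 genes on chromosome 19 stood at 0.31 and 0.13, that of 28 genes on chromosome 2 at 0.10 and 0.15, and that of 21 genes on chromosome 19 at 0.07 and -0.04. Still below were the 40 genes on chromosome 7, at -0.62 and -0.42, the 35 genes on chromosome 9, at -0.28 and -0.24, the 221 genes on chromosome 2, at -0.11 and -0.09, and the 94 genes on chromosome 9, at -0.11 and -0.05. The 46 genes on chromosome 17 were slightly below on both scales, at -0.05 and -0.07 on this one. The 37 genes on chromosome 2 were above their flank in both genotypes but below on this scale, at -0.04 and -0.06. The cluster of 93 genes on chromosome 7 remained above, at 0.37 and 0.32. H3K9me2 was above in 17 and 16 of the 17, among them the clusters of 44 genes (0.14 and 0.09) and 40 genes (0.15 and 0.17) that were not above their flank. H3K9me3 was above in 9 and below in 8 in both genotypes, and in each genotype 7 clusters above their flank were below on this scale. For H3K27me3 and H3K9me3, the side on which a single large cluster lay thus often depended on what it was compared with.

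Smaller clusters tended to have more H3K27me3. The 17 clusters of 5 to 19 genes ran from -0.63 to 1.20 over the flank for H3K27me3 in Dicer KO and from -0.58 to 1.08 in Dicer KO/Dnmt1 cKO. For H3K9me2 they ran from -0.11 to 1.50 and from -0.21 to 1.29, and for H3K9me3 from -0.43 to 0.75 and from -0.34 to 0.89. The 27 clusters of 1 to 4 genes, which rest on few reads each, ran from -0.62 to 1.26 and from -0.65 to 1.40 for H3K27me3. Pooled by size, H3K27me3 levels were 0.872 and 0.876 in clusters of at least 20 genes, 1.17 and 1.15 in those of 5 to 19, and 1.35 and 1.27 in those of 1 to 4. H3K9me2 differed less by size, with 1.16 and 1.12, 1.23 and 1.16, and 1.22 and 1.22. GC content also differed between the size classes, at 37.0%, 42.0% and 42.0%. Against autosomal tiles of the same GC content, H3K27me3 stood at log2 0.06 and 0.03, 0.23 and 0.20, and 0.44 and 0.35 in this order, so the order of the classes held on that scale.

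The smaller clusters named here were picked once their values had been seen. The 6 genes of chr4:43707872-43868335 had the highest H3K27me3 level of all clusters with at least 5 genes, 2.04 in Dicer KO and 1.96 in Dicer KO/Dnmt1 cKO. The 8 genes of chr1:94376258-94517578 followed with 1.92 and 1.76, the 13 genes of chr4:118338124-118607445 with 1.89 and 1.69, and the 9 genes of chr15:98016444-98328837 with 1.77 and 1.79. These clusters are rich in GC for Olfr genes, at 48.6%, 48.5%, 44.3% and 45.6%. Low H3K27me3 levels were those of the 15 genes of chr7:93417240-93843894, 0.661 and 0.814, and of the 19 genes of chr11:48792391-49378362, 0.749 and 0.756. The latter cluster was also below its flank in H3K9me2, at -0.11 and -0.21, and in H3K9me3, at -0.27 and -0.31, and 79 of its 107 gene tiles belong to Olfr56, whose annotated bounds are far longer than those of other Olfr genes. These bounds also hold other genes, which differed in level. Low in every mark was 9930111J21Rik2, with 0.139, 0.146 and 0.104 in Dicer KO for H3K9me2, H3K27me3 and H3K9me3 over 19 tiles. Ifi47 was above the autosomal mean in every mark, with 1.43, 1.44 and 1.03 in the same order over 11 tiles. The level of Olfr56 is one over all tiles of its long bounds, and what made Olfr56 and its cluster low was not tested. The cluster of 7 genes chr14:52968778-53115370, which ends in Olfr1507 and lies beside the H enhancer of receptor choice, had all marks above its flank. H3K9me2 was at 1.33 and 1.10 there, H3K27me3 at 1.08 and 1.04, and H3K9me3 at 0.75 and 0.84. Its flank was low in all marks, with H3K9me2 at 0.510 and 0.543, and against autosomal tiles of the same GC content the cluster stood at 0.32 and 0.20, 0.44 and 0.39, and 0.12 and 0.20.

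Across the 34 clusters of at least 5 genes, levels followed GC content, most closely for H3K27me3. Spearman's rho between GC content and level was 0.811 in Dicer KO and 0.766 in Dicer KO/Dnmt1 cKO for H3K27me3, 0.612 and 0.605 for H3K9me2, and 0.583 and 0.633 for H3K9me3. With the number of genes, rho was -0.569 and -0.589 for H3K27me3, while the number of genes and GC content were themselves related at -0.622. The level of the flank had little relation to that of the genes, with rho between -0.136 and 0.193 in the 6 libraries. The order of the clusters was much the same in both genotypes, with rho of 0.906 for H3K9me2, 0.953 for H3K27me3 and 0.845 for H3K9me3. All 34 points of a library share its depth and any bias of that library with base composition, and what part GC content had in the measurement itself was not tested.

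**Figure D4:**
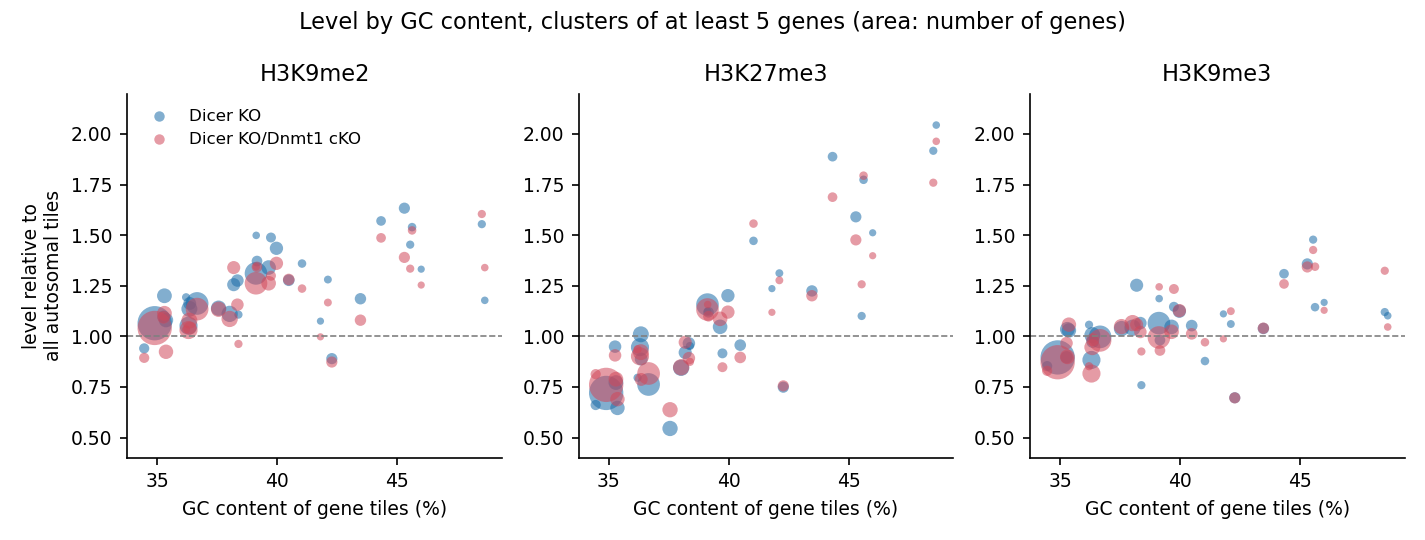
Level of each mark (y axis, relative to the autosomal mean) against the GC content of the Olfr gene tiles in percent (x axis) for the 34 clusters of at least 5 genes in both genotypes; the area of a point grows with the number of genes. H3K27me3 spans the widest range and is highest in small clusters rich in GC.

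Among cells without Dicer, H3K9me2 at Olfr genes and between them was slightly lower in the library without Dnmt1, and the other marks differed little at the genes. Whether demethylation moves these marks in silent gene arrays is the question of this comparison. The log2 ratio of Dicer KO/Dnmt1 cKO over Dicer KO at Olfr gene tiles was -0.06 (-0.08 to -0.04) for H3K9me2, from 32823 and 38383 reads in libraries of different depth. The flank had 0.05 (0.04 to 0.05) and all autosomal tiles 0.00, so the difference of gene tiles and flank was -0.11 (-0.13 to -0.08). Tiles between the genes were also lower in H3K9me2, at -0.035 (-0.045 to -0.026). Gene tiles differed from them by only -0.02 (-0.05 to -0.00), so much of the H3K9me2 difference was shared by the cluster spans. For H3K27me3, gene tiles were at -0.00 (-0.03 to 0.02) and their difference from the flank was 0.02 (-0.01 to 0.04). For H3K9me3 these values were -0.03 (-0.05 to -0.00) and -0.01 (-0.03 to 0.01). Tiles between the genes had -0.07 (-0.08 to -0.06) for H3K9me3, a lower value than that of the genes or of the flank. All of these differences are small, and with 1 library per genotype a difference of this size between libraries of the same genotype cannot be told apart from one between genotypes.

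The H3K9me2 difference was spread over many of the clusters with at least 5 genes. Of 34 clusters with at least 5 genes, 30 had less H3K9me2 in Dicer KO/Dnmt1 cKO, and 31 had a lower ratio between the genotypes than their own flank. Of these 30, 3 had an interval that excluded 0. The 27 clusters of 1 to 4 genes were split, with 13 lower and 14 higher, of which 0 and 2 had an interval that excluded 0, and 19 of the 27 had a lower ratio than their flank. The lowest value among the large clusters was -0.22 (-0.33 to -0.12) for the 35 genes of chr9:18559100-20140538, and the highest was 0.09 (-0.05 to 0.24) for the 28 genes of chr2:36232298-37188253. For H3K27me3, 19 of 34 clusters were lower and 15 higher, and for H3K9me3 likewise 19 and 15, of which 3 lower and 2 higher ones had an H3K9me3 interval that excluded 0. By that count H3K9me2 did not differ in more clusters than the other marks. The cluster counts between genotypes likewise have no share over other autosomal regions beside them and do not set Olfr clusters apart. The H3K27me3 interval excluded 0 on the upper side in 4 of the 34: chr7:93417240-93843894 had 0.30 (0.12 to 0.48), chr7:114958094-116037934 had 0.23 (0.06 to 0.39), chr9:37518857-39995679 had 0.10 (0.02 to 0.18) and chr2:85171054-90122730 had 0.08 (0.03 to 0.13). It did so on the lower side in 3, where chr14:50513935-51363999 had -0.17 (-0.32 to -0.03), chr4:118338124-118607445 had -0.16 (-0.30 to -0.02) and chr19:12748669-13994534 had -0.13 (-0.24 to -0.02). The largest H3K9me3 difference of the large clusters was -0.24 (-0.39 to -0.09) in chr2:36232298-37188253.

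**Figure D5:**
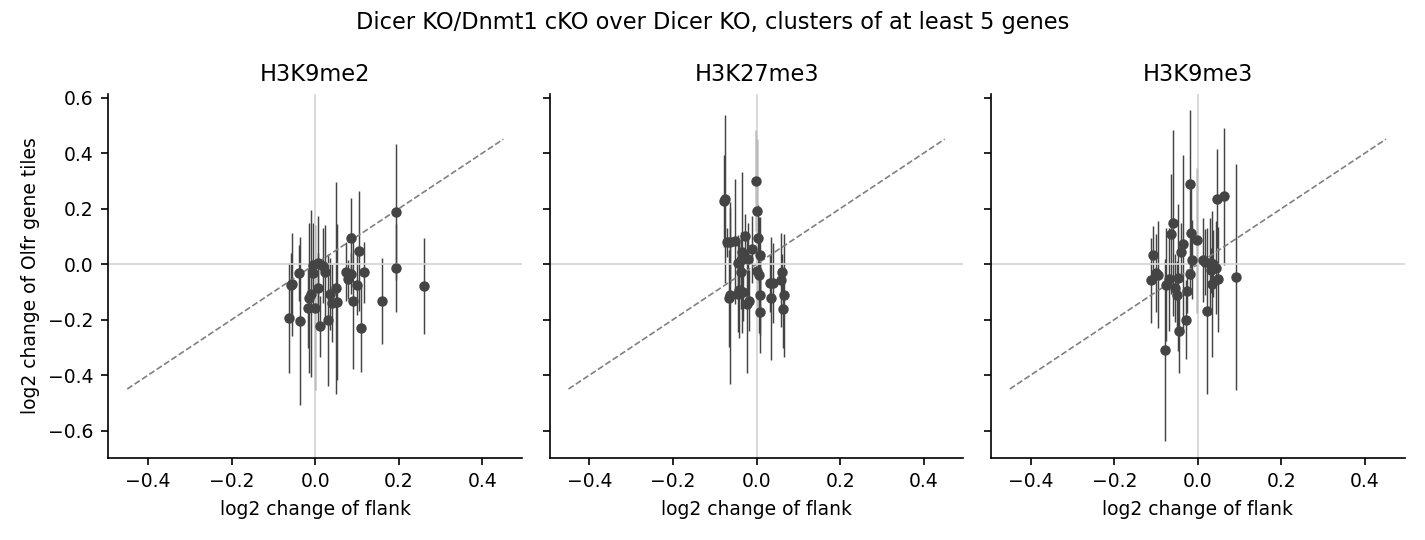
log2 ratio of Dicer KO/Dnmt1 cKO over Dicer KO at Olfr gene tiles (y axis, with 95% intervals for counting error) against that of the cluster's flank (x axis) for the 34 clusters of at least 5 genes; the dashed line marks equal values. For H3K9me2, 31 of the 34 clusters lie below the line, and for the other marks the points lie on both sides.

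The libraries differed in how reads depended on GC content, which moves with these values. Over all autosomal tiles, the H3K9me2 ratio of Dicer KO/Dnmt1 cKO over Dicer KO ran from -0.04 at a GC content of 36 to 38% to 0.15 above 50%, and Olfr genes are poor in GC. In each of the 9 ranges of GC content, Olfr gene tiles had a negative H3K9me2 value, from -0.10 to -0.03, below that of all autosomal tiles of the range. With the flank weighted to the GC content of the gene tiles, the difference of genes and flank was -0.07 in place of -0.11, and with flank tiles outside annotated genes it was -0.07. H3K27me3 ran the other way over the autosomes, from 0.06 below 36% to -0.13 above 50%. What set these trends apart between the libraries was not tested.

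Few single tiles differed 2-fold. A tile entered this count when its libraries of a mark averaged 10 reads or more. Among Olfr gene tiles, 120 of 1889 (6.35%) differed at least 2-fold in H3K9me2, against 6.94% of all autosomal tiles. In these, 56 were higher and 64 lower in Dicer KO/Dnmt1 cKO, where the autosomal shares were 4.03% and 2.91%. For H3K27me3, 127 of 1781 tiles (7.13%) differed 2-fold, against 5.83% of autosomal tiles. Tiles between the Olfr genes had a like share, 7.14%, and flank tiles had 6.39%, so a share above the autosomal one was not particular to the genes. The counted Olfr tiles had a median of 19 H3K27me3 reads per library, against 21.5 over the autosomes, and the part of this in the share was not tested. Of the 127 tiles, 68 were higher and 59 lower, beside autosomal shares of 3.05% and 2.77%. For H3K9me3, 145 of 1798 tiles (8.06%) differed, against 7.44%, with 73 higher and 72 lower beside 4.07% and 3.37%. These shares are given without intervals, since neighbouring tiles of the same libraries are not independent draws. At this depth a 2-fold difference of a single tile is within reach of counting error, and where the average had to reach 20 reads the Olfr shares were 2.09%, 3.43% and 2.95%, against autosomal shares of 3.14%, 2.70% and 2.94%.

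Strong single tiles at Olfr genes were more frequent for H3K9me2 than for the other marks. A tile was called strong when its level reached that of the highest 1% of autosomal tiles, and since reads are whole numbers slightly more tiles reached that level. For H3K9me2, 44 Olfr gene tiles (2.15%) were strong in Dicer KO and 28 (1.37%) in Dicer KO/Dnmt1 cKO, against 1.29% and 1.10% of autosomal tiles, and 9 tiles were strong in both. For H3K27me3 there were 2 and 4 such tiles among the 2043 (0.0979% and 0.196%, against 1.03% and 1.09% of autosomal tiles). For H3K9me3 there were 6 and 7 (0.294% and 0.343%, against 1.03% and 1.08%). Between the genes, however, 249 tiles (2.06%) and 204 tiles (1.69%) were strong in H3K9me3, against 1.27% and 1.26% of flank tiles. The gene tile with most H3K27me3 in Dicer KO was chr4:118406001-118408000 at Olfr1339, with 83 reads in Dicer KO and 46 in Dicer KO/Dnmt1 cKO, or levels of 3.76 and 2.66. The tile with most H3K9me3 was chr9:39508001-39510000 at Olfr149, with 57 and 58 reads, or levels of 3.88 and 3.78, while its H3K9me2 levels were 0.367 and 0.722.

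Single Olfr genes were named by levels in Dicer KO among those with at least 50 reads of a mark, a rule that the value in Dicer KO/Dnmt1 cKO did not enter. For H3K9me2, 93 genes had that many reads, for H3K27me3 236 and for H3K9me3 80. The highest H3K9me2 levels were those of Olfr1411 (2.42 in Dicer KO and 2.29 in Dicer KO/Dnmt1 cKO), Olfr378 (2.16 and 1.84) and Olfr539 (2.09 and 2.08). The lowest were those of Olfr138 (0.632 and 0.564), Olfr56 (0.750 and 0.758) and Olfr631 (0.758 and 0.702). Each of these genes stayed on its side of the autosomal mean in the genotype that did not enter the choice. With a mean of 13.6 H3K9me2 reads per autosomal tile in Dicer KO, a gene of 1 or 2 tiles reached 50 reads only well above the mean. The low end of this ranking could therefore hold only genes with long annotated bounds, here of 8, 79 and 9 tiles. That they stayed low over so many tiles adds no support. Among all Olfr genes, H3K9me2 levels went down to 0, so these are not the lowest of the family. The minimum also kept short genes of low level out of the lists of the other marks. For H3K27me3, the highest were Olfr1339 (3.45 and 2.52), Olfr524 (3.24 and 2.72) and Olfr222 (3.04 and 2.49), and the lowest Olfr138 (0.346 and 0.405), Olfr1033 (0.522 and 0.521) and Olfr309 (0.544 and 0.695). For H3K9me3, the highest were Olfr149 (2.72 and 2.77), Olfr1388 (2.52 and 1.53) and Olfr1428 (2.14 and 1.86), and the lowest Olfr56 (0.564 and 0.554), Olfr631 (0.597 and 0.601) and Olfr649 (0.694 and 0.925). The highest H3K27me3 levels of these genes were below the medians of the lineage regulators' start tiles given above, but within the range of the regulators in both genotypes. Across all 1106 genes, Spearman's rho between the genotypes was 0.534 (H3K9me2), 0.743 (H3K27me3) and 0.476 (H3K9me3), where most genes have few reads.

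The largest differences between the genotypes stayed under 2-fold among genes whose libraries of a mark together held 100 reads or more. H3K9me2 had 108 such genes, H3K27me3 had 167 and H3K9me3 had 70, and their extremes are to be read with that number in mind. The highest H3K9me2 ratios of Dicer KO/Dnmt1 cKO over Dicer KO were those of Olfr1018 (log2 0.62, interval 0.03 to 1.23), Olfr129 (0.52, 0.02 to 1.04) and Olfr348 (0.50, -0.08 to 1.10). The lowest were those of Olfr331 (-0.68, -1.23 to -0.13), Olfr175-ps1 (-0.67, -1.22 to -0.13) and Olfr1331 (-0.58, -1.04 to -0.12). Olfr1331 lies in the cluster of 13 genes on chromosome 4 that also holds Olfr1339. For H3K27me3, the highest were those of Olfr651 (0.70, 0.13 to 1.29), Olfr571 (0.60, 0.02 to 1.18) and Olfr131 (0.57, 0.03 to 1.13) and the lowest those of Olfr550 (-0.72, -1.33 to -0.14), Olfr735 (-0.69, -1.33 to -0.08) and Olfr1511 (-0.68, -1.22 to -0.16). Olfr571 and Olfr550 lie in the same cluster around the beta-globin genes and had ratios of opposite sign. For H3K9me3, the highest were those of Olfr1223 (0.49, -0.11 to 1.10), Olfr58 (0.46, -0.13 to 1.08) and Olfr1414 (0.45, 0.02 to 0.87) and the lowest those of Olfr1388 (-0.72, -1.27 to -0.17), Olfr406-ps (-0.53, -0.94 to -0.12) and Olfr360 (-0.53, -1.13 to 0.07). Over the eligible Olfr genes, H3K9me2 intervals excluded 0 on the lower side for 8 (7.41%, against 3.43% of autosomal protein-coding genes under the same minimum) and on the upper side for 3 (2.78%, against 19.9%). For H3K27me3 these counts were 10 (5.99%, against 11.7%) and 6 (3.59%, against 20.5%). For H3K9me3 they were 2 (2.86%, against 3.40%) and 1 (1.43%, against 8.22%). The autosomal genes held more reads, with medians of 371.0, 423.0 and 356.0 over both libraries against 132.5, 126.0 and 131.0 for the Olfr genes in the order of the marks, so their intervals are narrower and the shares are not on equal terms.

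Within the family, the median H3K27me3 level was higher at genes with more CpG at the start of their coding sequence. Genes with 0 or 1 CpG in their first 300 coding bases, 505 in number, had a median H3K27me3 level of 0.839 in Dicer KO. For the 431 genes with 2 or 3 it was 0.884, for the 108 with 4 or 5 it was 1.10, for the 34 with 6 or 7 it was 1.18, and for the 25 with 8 or more it was 1.36. In Dicer KO/Dnmt1 cKO the medians were 0.839, 0.926, 1.07, 1.36 and 1.62. Pooled over tiles, where long genes weigh more, the order was broken at 6 or 7 CpG, the class of Olfr56. The pooled levels were 0.869, 0.936, 1.19, 1.04 and 1.61 in Dicer KO and 0.863, 0.935, 1.16, 1.06 and 1.70 in Dicer KO/Dnmt1 cKO. Across 1103 genes, rho between CpG count and H3K27me3 level was 0.242 and 0.267, and that between the GC content of the window and the level was 0.372 and 0.376. Both properties move together and their parts were not separated. For H3K9me2 rho with CpG count was 0.117 and 0.0802, and for H3K9me3 0.128 and 0.165. The printed genes do not follow this order closely, since Olfr1339, with the highest H3K27me3, holds 3 CpG and Olfr56, low in every mark over its long bounds, holds 6.

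Compared with other gene families, Olfr genes stood out from most genes in H3K9me2. The median level per gene was 1.18 in Dicer KO and 1.14 in Dicer KO/Dnmt1 cKO, against 0.691 and 0.782 over all autosomal protein-coding genes. Above the autosomal mean were 71.2% and 66.9% of Olfr genes, against 28.2% and 31.3% of all genes. The 203 Vmn1r genes, a family of vomeronasal receptors for pheromones, had medians of 0.953 and 0.933, and the 124 Vmn2r genes, the other such family, 0.923 and 0.901. By their medians, the vomeronasal genes were below the Olfr genes in the other marks too, though above all genes. Over the mean of the medians of the other marks, H3K9me2 had 1.27 and 1.26 for Vmn1r, 1.18 and 1.16 for Vmn2r and 1.25 and 1.22 for Olfr genes. All autosomal protein-coding genes had 1.01 and 1.11. By these medians Olfr genes did not stand apart from the vomeronasal families, and in Dicer KO/Dnmt1 cKO the Vmn2r genes were close to all genes. With levels pooled over each family, Olfr genes were highest, at 1.21 and 1.17. Vmn1r genes then had 1.14 and 1.16, Vmn2r genes 1.095 and 1.11, and all genes 0.984 and 0.991. H3K9me3 medians were 0.986 and 0.977 for Olfr genes, 0.816 and 0.782 for Vmn1r, 0.903 and 0.858 for Vmn2r and 0.719 and 0.734 for all genes. H3K27me3 medians were 0.907 and 0.897 for Olfr genes, 0.680 and 0.695 for Vmn1r, 0.662 and 0.691 for Vmn2r and 0.644 and 0.675 for all genes. The 40 genes of the Hox clusters, developmental regulators under Polycomb control, had the reverse make-up. Their medians were 4.81 and 3.64 for H3K27me3 and 0.330 and 0.334 for H3K9me2. Pooled over the family, the H3K27me3 ratio of Dicer KO/Dnmt1 cKO over Dicer KO was -0.44 (-0.48 to -0.41) for Hox genes and -0.00 (-0.02 to 0.02) for Olfr genes. For H3K9me2, the ratio was -0.06 (-0.12 to -0.00) for Vmn1r genes, -0.04 (-0.07 to -0.01) for Vmn2r genes and -0.06 (-0.08 to -0.04) for Olfr genes. For H3K9me3 it was -0.12 (-0.18 to -0.06), -0.10 (-0.13 to -0.07) and -0.02 (-0.05 to -0.00) in the same order, the vomeronasal families thus lying below the Olfr genes. The signs of these ratios were the same under both other scalings of the libraries, which shifted all values of a mark by about 0.01 log2 units or less.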

How the data were processed

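The analysis used 6 ChIP-seq libraries of ESCs, covering H3K9me2, H3K27me3 and H3K9me3 in Dicer KO cells and in Dicer KO/Dnmt1 cKO cells. Per the methods, the authors used Trim Galore for trimming and Bowtie2 for mapping to NCBIM37, and kept reads of good mapping quality. Whether duplicates were removed is not stated for ChIP-seq. The deposited values are log2 ratios of observed to expected reads, which the authors computed for 2 kb tiles, although the methods give another tile width. Of 25 value columns, 6 matched the samples, and the other 19 were left aside and not used.

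Reads per tile were calculated back from the log2 values that the authors deposited, as their antilogs were whole multiples of 1 step per library within a tolerance of 0.1, except for 1 value of H3K9me3 in Dicer KO/Dnmt1 cKO, with empty tiles at 0.9 of a read. Further steps used Python 3.11.15, numpy 2.4.6, pandas 2.3.3, scipy 1.17.1 and matplotlib 3.10.9. Left out were 39285 autosomal tiles with fewer than 1000 known bases. Genes came from the NCBIM37 annotation. Levels are reads per tile over the autosomal mean, and changes between genotypes are ratios of shares of the library total. Intervals are 95% intervals for counting error, and no test between genotypes was made. They are exact, except that those of a difference between the changes of 2 regions use a normal approximation. Functions were tested on simulated data.

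Named were Dnmt1, Dicer1, the clusters of at least 20 genes and, for each mark, the 3 Olfr genes with the highest and the 3 with the lowest level in Dicer KO (at least 50 reads) and the 3 largest and 3 smallest changes (at least 100 reads over both libraries), and for H3K27me3 and H3K9me3 the tile with the highest level. Members and lists were chosen with earlier results of these data known. Alternatives changed the width, gene content or GC weighting of the flank, the merging distance, the member tiles, the handling of empty and of the fullest tiles, the minimum of reads, the scaling of libraries, and pooling over clusters. Leaving out Olfr genes over 10 kb and leaving out the largest cluster were added after seeing the data.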

Additional observations from a re-analysis of the deposited data

How the results depend on the processing

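No paired analysis was possible because every combination of mark and genotype was sequenced as 1 library. Values below are given for Dicer KO and then Dicer KO/Dnmt1 cKO. Of 66 alternative values for the log2 ratio of gene tiles over flank, 23 stayed within the counting interval and 43 moved beyond it. No called direction turned, but the H3K27me3 ratio, near 0, took either sign. With a flank of 200 kb, H3K9me2 had 0.39 and H3K9me3 0.15 in Dicer KO, and H3K27me3 had 0.033 and 0.042. With 1 Mb, H3K9me2 had 0.43 and 0.32, H3K27me3 0.017 and 0.030, and H3K9me3 0.20 and 0.18. Over whole cluster spans, H3K9me2 had 0.19 and 0.10, H3K27me3 -0.13 and -0.13, and H3K9me3 0.22 in Dicer KO. With flank tiles that overlap no gene the ratios were 0.32 and 0.25, -0.14 and -0.10, and 0.035 and 0.045 in the order H3K9me2, H3K27me3 and H3K9me3. With a flank weighted to the GC content of the gene tiles they were 0.36 for H3K9me2 in Dicer KO, 0.27 and 0.24 for H3K27me3, and 0.18 for H3K9me3 in Dicer KO/Dnmt1 cKO. As a median over clusters of at least 5 genes they were 0.49 and 0.33, 0.10 and 0.14, and 0.20 and 0.23. Without Olfr genes over 10 kb, chosen after seeing the data, they were 0.44 and 0.33, 0.017 and 0.034, and 0.20 and 0.18. Without the largest cluster, likewise added after seeing the data, they were 0.44 and 0.33, 0.087 and 0.086, and 0.20 and 0.20.

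The change between genotypes relative to the flank moved in 7 of 33 values. H3K9me2 had -0.073 with a flank outside genes, -0.066 with a GC-weighted flank and -0.13 as a median over clusters. H3K27me3 had -0.027 with the GC-weighted flank and -0.035 as a median over clusters, where the pooled value was 0.015. H3K9me3 had -0.050 over whole spans and 0.021 with the GC-weighted flank. The change without the flank moved in 3 of 15 values: H3K9me3 had -0.065 over whole spans, and H3K27me3 had -0.029 as a median over clusters and -0.035 less the change of GC-matched autosomal tiles. Where tiles had to average 20 reads, 2.09%, 3.43% and 2.95% of Olfr tiles differed 2-fold, against 3.14%, 2.70% and 2.94% of autosomal tiles. Among clusters of at least 5 genes, those below their flank were 4 and 5 for H3K9me2 and 5 and 6 for H3K9me3, out of fewer clusters. Except where fewer tiles or clusters entered, the cause of these moves was not tested. Depth limits single tiles and genes most, with a median of 13 to 18 reads per tile.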

Other observations

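The spans of the clusters held 77 other protein-coding genes, whose median H3K9me2 level, 1.10 in Dicer KO and 1.05 in Dicer KO/Dnmt1 cKO, was below that of the Olfr genes and above that of all genes. Their median H3K27me3 level was 0.816 and 0.926, and their median H3K9me3 level 0.935 and 0.912. The genes named here were picked once their values had been seen. Patl1, a factor of mRNA decay, had H3K27me3 levels of 0.229 and 0.296 within a cluster on chromosome 19, and Zfp91 had 0.219 and 0.228 in the next. Their H3K9me2 levels were 0.375 and 0.471 for Patl1 and 0.526 and 0.591 for Zfp91, so both genes stood below the Olfr genes around them in these marks. Il3ra, which encodes a subunit of the interleukin-3 receptor, had an H3K9me3 level of 4.41 and 4.48, from 389 and 413 reads over 6 tiles, the highest H3K9me3 level of the 77 genes. Btnl9 had an H3K27me3 level of 2.46 and 2.19 over 12 tiles in the cluster of Olfr56.

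Pseudogenes of Olfr symbols, 132 in number and covering 188 tiles, had levels close to those of the Olfr genes annotated as protein-coding, some of which carry pseudogene symbols themselves. H3K9me2 was at 1.18 and 1.09, H3K27me3 at 0.932 and 0.894, and H3K9me3 at 1.03 and 0.957. In Dicer KO, the log2 ratio of pseudogene tiles over Olfr gene tiles had an interval that included 0 for all marks. The ratio in Dicer KO/Dnmt1 cKO was -0.05 (-0.10 to -0.00) for H3K9me2, -0.08 (-0.14 to -0.03) for H3K27me3 and -0.03 (-0.09 to 0.02) for H3K9me3.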
